A study of Mus musculus with 12 samples.

Results

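The 10 genes described here encode inflammatory chemokines and cytokines and were taken by name from the deposited count table, which lists 55401 genes. They are the chemokines *Cxcl1*, *Cxcl2*, *Cxcl5*, *Cxcl10*, *Ccl2*, *Ccl7* and *Cx3cl1*, the cytokines *Il6* and *Lif*, and the colony-stimulating factor *Csf1*. Their mRNA was measured in mouse satellite cells, the stem cells of skeletal muscle, from *Cxcr4* WT and *Cxcr4* KO mice. The strongest contrast lay between freshly sorted and cultured cells: *Cxcl1*, *Cxcl2*, *Cxcl10* and *Il6* fell and *Csf1* rose in both genotypes. These states also differed in sex-linked transcripts, so culture and the sex of the mice cannot be told apart. No member passed the test between KO and WT in either state, and after culture the sign of the KO and WT difference turned for 6 members when 1 WT library was left out.

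Chemokines are small secreted or membrane-anchored proteins that draw white blood cells along a gradient through G protein-coupled receptors. CXCL1, CXCL2 and CXCL5 act on CXCR2 of neutrophils, CXCL10 on CXCR3 of T cells, CCL2 and CCL7 on CCR2 of monocytes, and CX3CL1 on CX3CR1. IL-6 and LIF belong to the family that signals through the shared receptor chain gp130 (*Il6st*), and CSF1 keeps macrophages alive through CSF1R. In injured muscle, such signals bring neutrophils and monocytes to the fiber, and IL-6 and LIF are known to act on satellite cells themselves. Many of these genes are switched on by NF-kB, and many of their mRNAs are short-lived.

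All mice carried homozygous floxed alleles (CXCR4 FL/FL) and the Pax7-ZsGreen reporter, and all received tamoxifen by intraperitoneal injection at 80 mg/kg on 5 days. KO mice also carried Pax7-creERT2, which deletes the floxed gene in *Pax7*-expressing cells only, and WT mice lacked cre, so the groups differ in the presence of cre as well as in *Cxcr4*. ZsGreen+ cells were sorted from digested hind limb muscle and were either lysed at once (quiescent, 4 WT and 4 KO libraries) or cultured overnight (activated, 2 WT and 2 KO libraries). Quiescent is thus a label for freshly sorted cells. The authors report that almost all such cells already held MYOD1 protein, which they describe as an early step of activation during enzyme digestion. The part of the isolation in the values below was not tested. The labels give neither the age of the mice nor whether animals were pooled for a library. The paper states that its mice were adult. It also states that mice in its conditional knockout work stayed on a tamoxifen diet after the injections.

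Quiescent libraries held 12775593 to 23717013 counts and activated ones 3172164 to 5427280, so low counts limit the activated values. *Cxcr4* was 80.5 ± 25.3 CPM (counts scaled to the library size with TMM factors, SD, n = 4) in quiescent WT cells, against 17.1 ± 3.54 CPM (SD, n = 4) in KO cells of that state (log2 fold change -2.24, SE 0.31, adjusted p = 0.00477 from edgeR). In activated cells it was 14.4 and 33.3 CPM in WT and 5.39 and 13.7 CPM in KO libraries, a smaller difference that did not pass (log2 fold change -1.35, SE 0.46, adjusted p = 0.381). *Pax7*, the satellite cell transcription factor whose gene drives the cre, was 392 ± 85.0 CPM in WT and 247 ± 49.7 CPM in KO quiescent libraries (SD, n = 4 each), and every KO library was below every WT library (log2 fold change -0.67, SE 0.23, adjusted p = 1). It was 109 ± 2.69 and 100 ± 41.2 CPM in activated WT and KO libraries (SD, n = 2 each). Satellite cell markers were present in all groups. Over 9 genes they summed to 5359 to 9711 CPM in quiescent and 3064 to 4338 CPM in activated libraries. CT010467.1, annotated as ribosomal RNA, took 11.5 to 40.3% of the counts of activated libraries and under 1% of those of quiescent libraries. The activated libraries had 451 to 817 CPM of *Xist* and at most 2.51 CPM over 4 Y-linked genes, and the quiescent libraries at most 7.17 CPM of *Xist* and 358 to 660 CPM of the Y-linked genes. The sex of the mice and the overnight culture can therefore not be told apart in any comparison of states. The 7 markers of mature muscle fiber all rose in culture in both genotypes, from a summed 239 to 856 CPM to 6158 to 15243 CPM, and their part in the changes below was not tested.

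Coordinates are those of GRCm38 with GENCODE genes. *Cxcl5* (ENSMUSG00000029371, chromosome 5, 90759360 to 90761624), *Cxcl1* (ENSMUSG00000029380, 90891241 to 90893115) and *Cxcl2* (ENSMUSG00000058427, 90903871 to 90905938) lie in this order on the plus strand, with 129.6 kb and 10.76 kb between neighbors. *Cxcl10* (ENSMUSG00000034855, 92346638 to 92348889) lies on the minus strand of the same chromosome and shares 133 exonic bases with *Art3* on the other strand. *Il6* (ENSMUSG00000025746, 30013114 to 30019981) is also on chromosome 5. *Ccl2* (ENSMUSG00000035385, 82035571 to 82037453) and *Ccl7* (ENSMUSG00000035373, 82045712 to 82047525) are 8.258 kb apart on chromosome 11, which also holds *Lif* (ENSMUSG00000034394, 4257557 to 4272514). *Cx3cl1* (ENSMUSG00000031778) spans 94772009 to 94782427 on chromosome 8, and *Csf1* (ENSMUSG00000014599) spans 107741048 to 107760469 on the minus strand of chromosome 3.

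Sequence likeness bears on how surely reads were assigned. The transcripts of *Cxcl2* and *Cxcl3* were 94.6% identical over 239 bases, those of *Cxcl1* and *Cxcl2* 79.4% over 189 bases and those of *Ccl2* and *Ccl7* 72.5% over 236 bases. The treatment of reads that map to several places is not given in the sources used here, so the *Cxcl2* level is uncertain to that extent. The strand setting of the counting is not given either, so reads from the bases that *Cxcl10* and *Art3* share cannot be told apart.

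RefSeq promoters on GRCm38.p6, from 250 bases before to 50 bases after the start, were at hand for 7 of the 10 members. An NF-kB motif occurred in 6 of the 7 (*Cxcl1*, *Cxcl2*, *Cxcl10*, *Il6*, *Lif* and *Csf1*), and 11.2% of all 32851 promoters of the same length held one. The AP-1 motif TGANTCA occurred in *Cxcl10*, *Il6* and *Lif*, against 7.81% of all promoters, and the C/EBP motif TTNNGNAA in *Cxcl2*, *Cxcl10* and *Il6*, against 40.7%. The TATA box letters TATAAA occurred in *Cx3cl1*, against 8.32%, at positions -6 to -1, directly before the start. Both strands were searched except for the TATA box, and no match overlapped a match to another motif. A match is a run of letters and was not tested as a binding site. The 5 promoters below belong to the 4 members that fell in culture in both genotypes and to *Csf1*, the 1 that rose; they are written 5′ to 3′ on the strand of the gene, with the NF-kB matches in capitals, at chr5:90890995-90891294 (*Cxcl1*, plus), chr5:90903649-90903948 (*Cxcl2*, plus), chr5:92348840-92349139 (*Cxcl10*, minus), chr5:30012864-30013163 (*Il6*, plus) and chr3:107760420-107760719 (*Csf1*, minus).
Cxcl1: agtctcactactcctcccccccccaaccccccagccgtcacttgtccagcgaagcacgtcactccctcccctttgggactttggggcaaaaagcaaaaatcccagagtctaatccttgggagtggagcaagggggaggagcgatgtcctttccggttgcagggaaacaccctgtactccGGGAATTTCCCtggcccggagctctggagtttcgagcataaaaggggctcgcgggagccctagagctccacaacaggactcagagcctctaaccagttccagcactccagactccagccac
Cxcl2: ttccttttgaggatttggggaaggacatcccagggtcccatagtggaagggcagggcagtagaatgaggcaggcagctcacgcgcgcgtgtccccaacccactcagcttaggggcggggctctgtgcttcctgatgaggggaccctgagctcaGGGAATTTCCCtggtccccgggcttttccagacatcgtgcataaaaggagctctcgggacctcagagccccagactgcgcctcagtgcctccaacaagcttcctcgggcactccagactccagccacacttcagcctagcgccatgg
Cxcl10: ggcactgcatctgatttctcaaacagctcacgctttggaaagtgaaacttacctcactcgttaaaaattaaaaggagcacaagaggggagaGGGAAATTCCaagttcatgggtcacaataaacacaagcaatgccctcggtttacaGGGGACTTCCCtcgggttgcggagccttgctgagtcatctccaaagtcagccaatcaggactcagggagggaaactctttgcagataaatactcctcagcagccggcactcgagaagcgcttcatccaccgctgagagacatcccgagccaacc
Il6: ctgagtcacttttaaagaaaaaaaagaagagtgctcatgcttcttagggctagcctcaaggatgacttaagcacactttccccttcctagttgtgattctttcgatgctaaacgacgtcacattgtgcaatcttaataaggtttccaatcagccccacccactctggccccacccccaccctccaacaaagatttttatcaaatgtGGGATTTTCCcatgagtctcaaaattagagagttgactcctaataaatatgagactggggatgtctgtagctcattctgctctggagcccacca
Csf1: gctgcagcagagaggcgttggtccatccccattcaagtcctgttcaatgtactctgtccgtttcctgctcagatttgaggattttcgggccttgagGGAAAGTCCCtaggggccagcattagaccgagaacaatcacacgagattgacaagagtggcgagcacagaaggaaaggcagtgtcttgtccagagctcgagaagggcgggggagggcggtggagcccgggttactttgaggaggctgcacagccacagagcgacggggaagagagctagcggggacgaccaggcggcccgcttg

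The capitals of *Cxcl1* and *Cxcl2* are the same run of letters, GGGAATTTCCC, which holds 2 overlapping matches. It begins 71 bases before the start in *Cxcl1*, shown here as position -71, and at position -97 in *Cxcl2*. *Cxcl10* had matches from -159 and from -104, *Il6* from -44, and *Csf1* from -154. The motif was thus found in the promoter of the gene that rose and in those of the 4 genes that fell in both genotypes. *Cx3cl1*, which was called lower in activated than in quiescent KO cells, had no match in this window.

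Per kilobase of exon, which allows levels to be compared between genes, *Cxcl1* was the most abundant member in quiescent cells, with 542 ± 74.1 CPM per kb (SD, n = 4) in WT and 790 ± 280 CPM per kb (SD, n = 4) in KO libraries. It made up 66.3 to 70.3% of the summed level of the members in WT and 52.6 to 74.8% in KO libraries. *Cxcl2* came next, with 54.5 ± 9.29 and 102 ± 36.2 CPM per kb (SD, n = 4 each), and every *Cxcl1* library lay above every *Cxcl2* library. The members from *Cxcl2* down to *Ccl7* in WT, and from *Cxcl2* down to *Cx3cl1* in KO, each overlapped their neighbor in the order, so their ranks are not separated beyond the spread of the libraries. *Cxcl5* was lowest, with 1.58 ± 0.928 and 3.98 ± 1.43 CPM per kb (SD, n = 4 each).

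After culture the order changed. *Csf1* was the most abundant member, with 283 ± 21.4 CPM per kb (SD, n = 2) in WT and 276 ± 68.7 CPM per kb (SD, n = 2) in KO libraries, 57.0 to 86.5% and 75.4 to 86.3% of the members' sum. *Cxcl1* was second, with 44.2 ± 37.7 and 28.1 ± 9.68 CPM per kb (SD, n = 2 each). The other members of WT activated cells overlapped their neighbors from *Cxcl1* to *Cxcl5*, and in KO activated cells *Il6* was lowest, with 0.523 ± 0.590 CPM per kb (SD, n = 2). The FPKM values deposited by the authors, 1 per group, lay within 1 SD of these levels for each member and group, for example 528 for *Cxcl1* in quiescent WT and 290 for *Csf1* in activated WT cells.

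**Figure D1:**
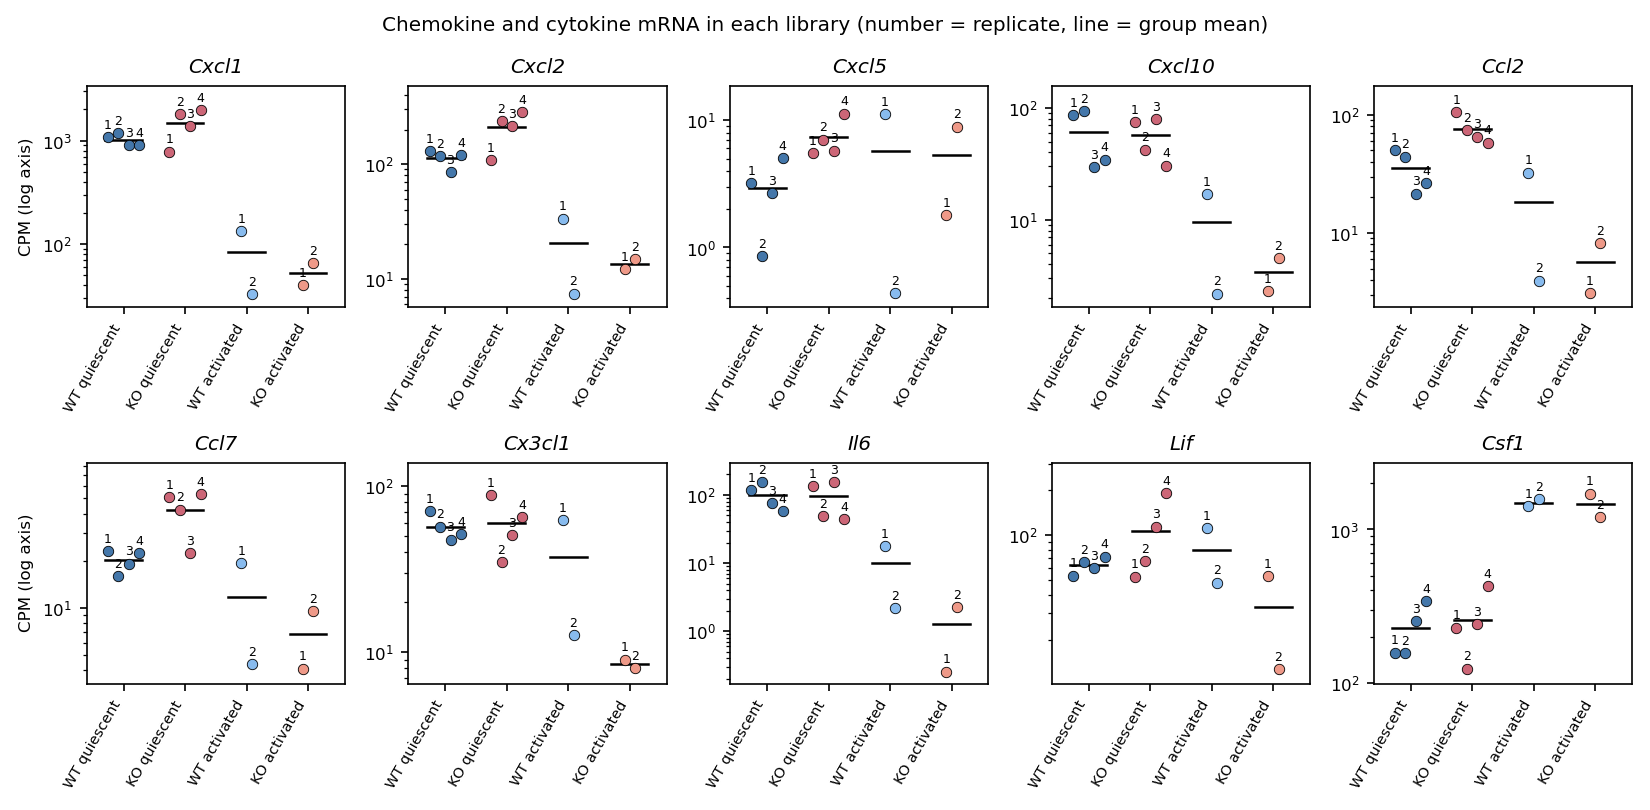
TMM-scaled CPM (log axis) of each of the 10 genes in the 12 libraries, 1 point per library labelled with its replicate number, and a line at each group mean. *Cxcl1*, *Cxcl2*, *Cxcl10* and *Il6* are lower and *Csf1* is higher in each activated library than in each quiescent library. WT activated replicate 1 is the highest activated library in 9 of the 10 panels. The share of all genes with either arrangement is not given.

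The first comparison set activated against quiescent libraries in each genotype, where overnight culture and the sex of the mice cannot be told apart. In WT cells 4 members fell and 1 rose, and in KO cells 8 fell and 1 rose. A gene was called at an adjusted p under 0.05 in edgeR's quasi-likelihood test over 25771 genes, provided that it differed by more than 1 on the log2 scale and that its normalized count averaged over 10. Of all genes tested, 16.5% were called lower and 9.65% higher in WT, and 18.5% lower and 11.1% higher in KO. How often the states do not overlap over all genes is not given, so the separations below describe single genes only. The median log2 fold change of the members was -0.78 in WT and -3.27 in KO, beside -0.92 and -0.96 over all genes tested. As these are bulk libraries, fewer cells of a type and less RNA per cell cannot be told apart. Of the 9 satellite cell markers, 6 were called lower in WT and 7 in KO (medians -1.68 and -1.39). Markers of other cells fell along with the members too. The 7 smooth muscle and pericyte markers summed to 1442 to 2614 CPM in quiescent and 173 to 369 CPM in activated libraries, with 5 called lower in WT and 7 in KO (medians -2.14 and -2.94). The 9 markers of fibroadipogenic progenitors summed to 821 to 3837 CPM and 356 to 803 CPM, with 4 called lower in each genotype and *Pdgfra* called higher in KO. The 11 hematopoietic markers summed to 85.3 to 394 CPM and 37.7 to 65.2 CPM, with 4 called lower in WT and 7 in KO, and 2 to 4 of them were at 0 in each activated library. Of the 9 endothelial markers, 3 were called lower in WT and 2 in KO. The part of these cells in the members' changes was not tested.

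*Cxcl1*, a neutrophil chemokine, had 1077, 1185, 901 and 905 CPM in WT and 783, 1792, 1382 and 1964 CPM in KO quiescent libraries. It had 133 and 32.8 CPM in WT and 39.8 and 65.5 CPM in KO activated libraries. Every activated library was below every quiescent library. The fall was 12.1-fold in WT (log2 fold change -3.60, SE 0.50, adjusted p = 1.88e-05 from edgeR) and 28.1-fold in KO cells (log2 fold change -4.81, SE 0.54, adjusted p = 1.38e-06).

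*Cxcl2*, its close relative, followed at a lower level. Quiescent WT libraries had 129, 118, 84.8 and 120 CPM, and quiescent KO libraries 108, 236, 213 and 285 CPM. Activated WT libraries had 33.5 and 7.44 CPM, and activated KO libraries 12.1 and 14.8 CPM. The states did not overlap, with log2 fold changes of -2.39 in WT (SE 0.45, adjusted p = 0.000472) and -3.97 in KO cells (SE 0.50, adjusted p = 5.73e-06).

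*Cxcl5*, the third of the CXCR2 ligands, was scarce and did not pass in either genotype. Its quiescent values were 3.18, 0.851, 2.68 and 5.06 CPM in WT and 5.53, 7.04, 5.77 and 11.3 CPM in KO. Its activated values were 11.1 and 0.438 CPM in WT, the latter from 1 count, and 1.80 and 8.90 CPM in KO. The activated libraries of each genotype lay far apart and overlapped the quiescent range in KO. The log2 fold change was 1.09 in WT (SE 0.72) and -0.46 in KO (SE 0.76), and the WT value was -2.66 without WT activated replicate 1 and 1.96, which passed, without WT activated replicate 2.

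*Cxcl10*, an interferon-inducible T cell chemokine, was 86.6, 92.9, 29.7 and 34.4 CPM in WT and 74.8, 42.4, 79.3 and 30.4 CPM in KO quiescent libraries. It was 16.8 and 2.19 CPM in WT and 2.31 and 4.56 CPM in KO activated libraries. All activated libraries were lower. The log2 fold change was -2.54 in WT (SE 0.62, adjusted p = 0.00391) and -4.03 in KO cells (SE 0.71, adjusted p = 0.000196).

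*Ccl2*, the main monocyte chemoattractant, had 49.96, 44.3, 21.5 and 26.4 CPM in quiescent WT and 105, 74.1, 65.2 and 58.2 CPM in quiescent KO libraries. Activated libraries had 32.3 and 3.94 CPM in WT and 3.08 and 8.21 CPM in KO. The first WT activated library lay inside the range of the quiescent WT libraries, and the other 3 activated libraries lay below all quiescent libraries. The gene was 13.2-fold lower in activated KO cells (log2 fold change -3.73, SE 0.62, adjusted p = 0.000123), while the WT log2 fold change of -0.88 (SE 0.52, adjusted p = 0.194) did not pass.

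*Ccl7*, the neighboring gene and also a CCR2 ligand, showed the same arrangement. Quiescent values were 23.0, 16.0, 19.2 and 22.4 CPM in WT and 50.7, 42.4, 22.3 and 53.2 CPM in KO, and activated values were 19.3 and 4.38 CPM in WT and 4.11 and 9.58 CPM in KO. Only the first WT activated library reached the quiescent range. The log2 fold change was -2.61 in KO cells (SE 0.50, adjusted p = 0.000471) and -0.68 in WT cells (SE 0.45, adjusted p = 0.244).

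*Cx3cl1*, whose product is a membrane-anchored chemokine that can be shed, was 71.0, 56.9, 47.6 and 51.3 CPM in quiescent WT and 87.95, 34.8, 50.9 and 65.3 CPM in quiescent KO libraries. The activated WT libraries differed widely, at 62.4 and 12.7 CPM, whereas the activated KO libraries had 8.99 and 7.98 CPM from 35 counts each. The fall passed in KO cells (log2 fold change -2.82, SE 0.50, adjusted p = 0.000241) but not in WT cells (-0.55, SE 0.43, adjusted p = 0.315).

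*Il6*, the gp130 cytokine, had the steepest fall of the members in KO cells. Quiescent libraries had 117, 155, 75.6 and 57.8 CPM in WT and 135, 48.9, 153 and 44.0 CPM in KO. Activated libraries had 17.8 and 2.19 CPM in WT, from 109 and 5 counts, and 0.257 and 2.28 CPM in KO, from 1 and 10 counts. Every activated library was below the lowest quiescent library. The log2 fold change was -3.20 in WT (SE 0.68, adjusted p = 0.00126) and -6.17 in KO cells (SE 0.88, adjusted p = 2.23e-05), and the KO value, which rests on 1 and 10 counts, was -8.47 without KO activated replicate 2 and -5.39 without replicate 1.

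*Lif* behaved differently. It had 53.5, 65.9, 60.003 and 71.7 CPM in quiescent WT and 52.8, 67.2, 114 and 191 CPM in quiescent KO libraries, and 111 and 48.2 CPM in activated WT and 53.4 and 12.8 CPM in activated KO libraries. The states overlapped in both genotypes. It passed as lower in KO cells (log2 fold change -1.69, SE 0.52, adjusted p = 0.0174) and not in WT cells (0.35, SE 0.47, adjusted p = 0.562). The KO call was lost without KO activated replicate 2, where the log2 fold change was -0.98 (adjusted p = 0.249), and in 2 other fits.

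*Csf1*, the macrophage growth factor, was the only member that rose. It had 157, 155, 252 and 341 CPM in quiescent WT and 229, 123, 241 and 425 CPM in quiescent KO libraries, and 1414 and 1573 CPM in activated WT and 1713 and 1200.2 CPM in activated KO libraries. Each activated library exceeded each quiescent library. The rise was 6.60-fold in WT (log2 fold change 2.72, SE 0.37, adjusted p = 1.67e-05) and 5.72-fold in KO cells (log2 fold change 2.52, SE 0.37, adjusted p = 3.31e-05).

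WT activated replicate 1 set how many members passed in WT. Without it, *Ccl2* (log2 fold change -3.09), *Ccl7* (-2.12) and *Cx3cl1* (-2.08) passed as lower too, which made 7 members lower and 1 higher. *Cxcl1*, *Cxcl2*, *Cxcl10* and *Il6* were then lower by log2 fold changes of -4.88, -3.84, -4.71 and -5.45. Without WT activated replicate 2 they were lower by -2.88, -1.69, -1.79 and -2.45 and still passed. The numbers of members called in WT and KO are not a test of a difference between the genotypes, which is given with the third comparison.

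**Figure D2:**
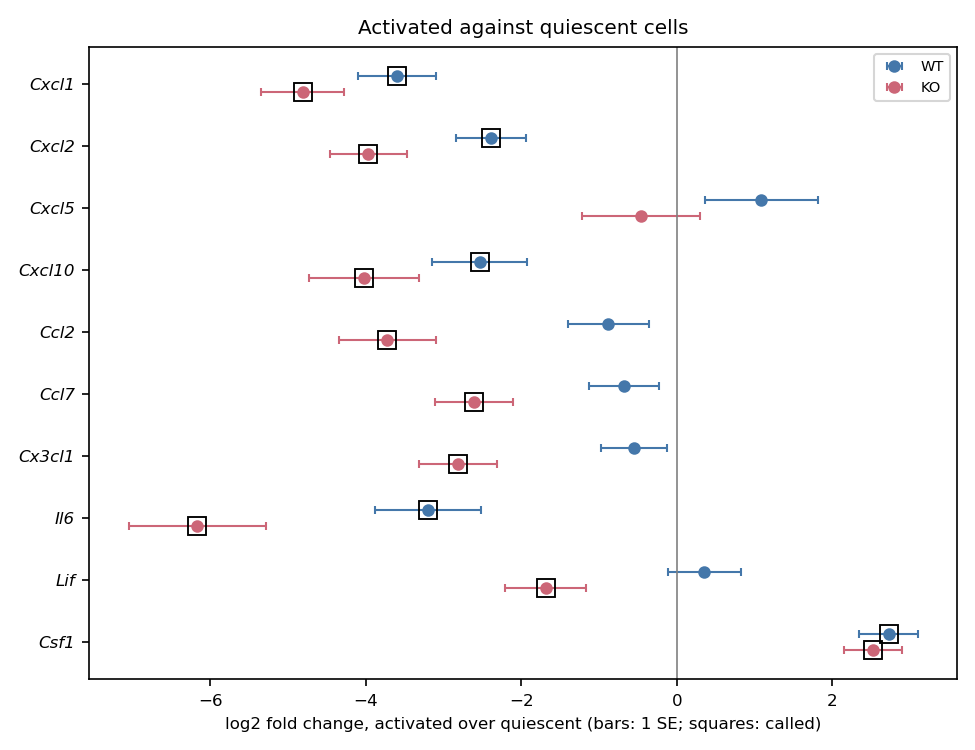
Log2 fold change of activated over quiescent cells for each gene in WT and KO, with bars of 1 SE and a square around values called by edgeR. Squares mark 5 WT and 9 KO values, and *Csf1* is the only gene called to the right of 0.

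The second comparison asked whether loss of *Cxcr4* changed these genes in freshly sorted cells. No member was called by edgeR or by DESeq2, where 0.0155% of all genes tested were called, namely 4 genes. An unadjusted p under 0.05 was reached by 4 of the 10 members (*Ccl2*, *Ccl7*, *Cxcl2* and *Cxcl5*), against 1.74% of all genes tested, and all 4 were higher in KO. The median log2 fold change of the members was 0.65, beside 0.02 over all genes tested. Every adjusted p of the members was 1.

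*Ccl2* had a mean of 75.6 ± 20.6 CPM (SD, n = 4) in KO and 35.6 ± 13.7 CPM (SD, n = 4) in WT quiescent libraries, a log2 fold change of 1.09 (SE 0.39). *Cxcl5* had 7.41 ± 2.67 and 2.94 ± 1.73 CPM (SD, n = 4 per genotype), which gave a log2 fold change of 1.32 (SE 0.59). In both genes every KO library exceeded every WT library, an arrangement found in 0.869% of all genes tested in this direction. *Ccl7* had 42.1 ± 14.0 and 20.2 ± 3.20 CPM (SD, n = 4 per genotype), which gave a log2 fold change of 1.06 (SE 0.34), and its KO replicate 3 fell inside the WT range.

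*Cxcl2* was 211 ± 74.8 CPM in KO and 113 ± 19.2 CPM in WT libraries (SD, n = 4 per genotype), which gave a log2 fold change of 0.90 (SE 0.32). *Cxcl1* was 1481 ± 525 and 1017 ± 139 CPM (SD, n = 4 per genotype), which gave a log2 fold change of 0.54 (SE 0.33). For both, KO replicate 1 lay within or below the WT values and the other KO replicates lay above all of them. *Lif* was 106 ± 62.3 and 62.8 ± 7.82 CPM (SD, n = 4 per genotype), which gave a log2 fold change of 0.76 (SE 0.39), with KO replicates 3 and 4 above all WT libraries.

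The remaining members lay close together in the genotypes. The log2 fold change was 0.17 for *Csf1* (SE 0.32), 0.08 for *Cx3cl1* (SE 0.33), -0.10 for *Cxcl10* (SE 0.42) and -0.09 for *Il6* (SE 0.45). KO quiescent replicate 4 was the highest quiescent library for 6 of the 10 members, and the share over all genes is not given. The 11 hematopoietic markers, genes of blood cells that could enter the gate, summed to 394 CPM in that library, where 1 was at 0, and to 85.3 to 198 CPM in the other quiescent libraries. Over the genotypes they summed to 85.3 to 198 CPM in WT and 99.4 to 394 CPM in KO, and their median log2 fold change of 0.80 was above the 0.65 of the members. None of them was called, and *C1qa* (1.30, SE 0.51) and *Lyz2* (0.80, SE 0.38) had an unadjusted p under 0.05. Their part in the members' values was not tested. All 8 fits that left out 1 quiescent library again called no member, and only the table without a filter on low counts called *Ccl2* and *Ccl7*, both higher in KO.

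The third comparison asked the same after overnight culture. Again no member was called by edgeR, where 0.0504% of all genes tested were called, and DESeq2 on all libraries called 1, *Cx3cl1*. The log2 fold change was below 0 for all 10 members, with a median of -1.08 beside 0 over all genes tested, and 5 members had an unadjusted p under 0.05, against 8.37% of all genes tested. These 5 were *Il6* (log2 fold change -3.06, SE 0.93, adjusted p = 0.289), *Cx3cl1* (-2.19, SE 0.53, adjusted p = 0.149), *Ccl2* (-1.76, SE 0.64, adjusted p = 0.431), *Cxcl10* (-1.59, SE 0.75, adjusted p = 0.595) and *Lif* (-1.28, SE 0.57, adjusted p = 0.562). Only *Cx3cl1* did not overlap between the genotypes, and 9.5% of all genes tested were separated in this direction.

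Leaving out 1 library turned the sign of 7 of these 10 values, and for 6 of them that library was WT activated replicate 1. WT activated replicate 1 was the highest activated library for 9 of the 10 members, whereas WT activated replicate 2 was the lowest for 4. WT replicate 1 also had the most counts of the activated libraries (5427280) and WT replicate 2 the fewest (3172164). How many of all genes share this pattern is not given. Without replicate 1, 6 members had a log2 fold change above 0, namely *Ccl2* (0.43), *Ccl7* (0.55), *Cxcl1* (0.58), *Cxcl2* (0.76), *Cxcl5* (3.49) and *Cxcl10* (0.56). *Il6* (-0.84), *Cx3cl1* (-0.68), *Lif* (-0.63) and *Csf1* (-0.20) stayed below 0, and *Csf1* turned to 0.14 without KO activated replicate 2. *Cxcl5* also turned without KO activated replicate 1 (0.48). Without replicate 2, *Il6* (-3.84, adjusted p = 0.0157), *Cx3cl1* (-2.95, adjusted p = 0.00104) and *Ccl2* (-2.59, adjusted p = 0.0108) were called lower in KO, in a fit that called 211 genes in all (192 lower) in place of 13. With 1 WT library left, these fits assume that it varies as the other groups do.

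*Csf1* was close in the genotypes after culture, at 1457 ± 363 CPM in KO and 1493 ± 113 CPM in WT libraries (SD, n = 2 each). Between the genotypes, its log2 fold change was -0.04 (SE 0.45).

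The difference between the KO effects in the 2 states was called for no gene at all by edgeR (0% of genes tested, 6.59% at an unadjusted p under 0.05) and for 47 genes by DESeq2, none of them a member. The estimate was below 0 for all 10 members and had an unadjusted p under 0.05 for 6. It was -2.97 for *Il6* (SE 1.04, adjusted p = 0.591), -2.85 for *Ccl2* (SE 0.76, adjusted p = 0.375), -2.26 for *Cx3cl1* (SE 0.63, adjusted p = 0.384), -2.04 for *Lif* (SE 0.69, adjusted p = 0.581), -1.93 for *Ccl7* (SE 0.64, adjusted p = 0.571) and -1.58 for *Cxcl2* (SE 0.59, adjusted p = 0.637). This contrast shares all its libraries with those above. Without WT activated replicate 1 it turned above 0 for *Cxcl1* (0.04), *Cxcl5* (2.17) and *Cxcl10* (0.67), and without WT activated replicate 2 it was called for *Ccl2* (-3.67), *Ccl7* (-2.62), *Cxcl2* (-2.30) and *Cx3cl1* (-3.02), among 82 genes in all.

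**Figure D3:**
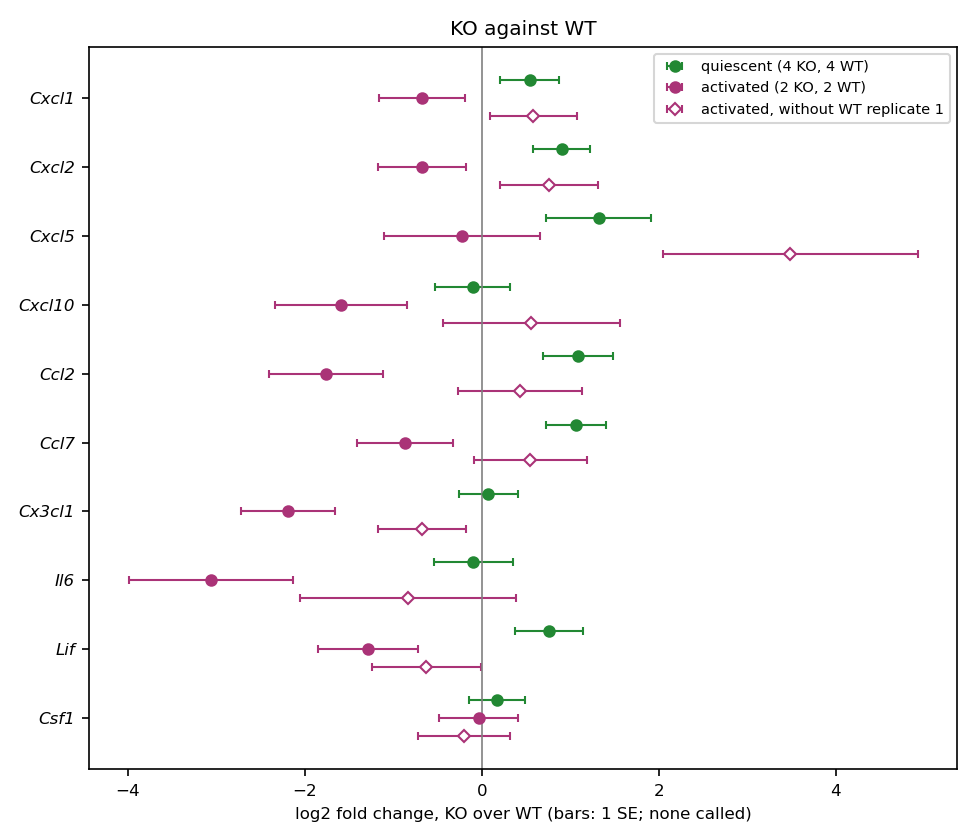
Log2 fold change of KO over WT for each gene in quiescent cells, in activated cells and in activated cells without WT replicate 1, with bars of 1 SE. None is called; with all libraries the activated values are all left of 0, and without WT replicate 1 those of *Cxcl1*, *Cxcl2*, *Cxcl5*, *Cxcl10*, *Ccl2* and *Ccl7* are right of 0.

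Markers of endothelial cells varied between libraries along with some members. The summed level of 9 endothelial genes, all detected in every library, was 1253 and 1315 CPM in WT quiescent replicates 1 and 2 and 1345 and 1290 CPM in KO quiescent replicates 1 and 3. It was 307 to 619 CPM in the other 4 quiescent libraries. The same 4 libraries were the 4 highest for *Il6*, with 117 to 155 CPM against 44.0 to 75.6 CPM, and for *Cxcl10*, with 74.8 to 92.9 CPM against 29.7 to 42.4 CPM. In activated cells the sum was 780 CPM in WT replicate 1, 111 CPM in WT replicate 2, and 122 and 389 CPM in KO replicates 1 and 2. WT activated replicate 1, the library that stood highest for 9 members, was thus also highest for endothelial markers. Among activated libraries it also had the highest sums of fibroadipogenic (803 CPM) and of smooth muscle and pericyte markers (369 CPM). Its sums of satellite cell (3064 CPM), mature fiber (6158 CPM) and hematopoietic markers (37.7 CPM) were the lowest of the activated libraries. *Cxcl1* did not follow the order of the endothelial sums in quiescent cells. Its highest value there, 1964 CPM, was in the library with the lowest endothelial sum.

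A fit with the log2 endothelial sum as a covariate, added after the values were seen, called the same number of members in each comparison as the fit without it. In it the culture log2 fold changes of *Il6* were -2.37 in WT (SE 0.35) and -4.63 in KO cells (SE 0.44), and those of *Cxcl10* were -1.69 (SE 0.34) and -2.61 (SE 0.39). Between KO and WT activated cells *Il6* was at -2.23 (SE 0.50, adjusted p = 0.0852), against -3.06 without the covariate. There *Cxcl10* moved from -1.59 to -0.74 (SE 0.43), *Ccl2* from -1.76 to -1.13 (SE 0.46), *Cx3cl1* from -2.19 to -1.75 (SE 0.47), *Lif* from -1.28 to -1.56 (SE 0.60) and *Cxcl5* from -0.23 to -0.018 (SE 0.90). *Ccl2* was at 1.36 in quiescent cells (SE 0.26, adjusted p = 0.159), and *Il6* and *Cxcl10* turned to 0.03 (SE 0.21) and 0.18 (SE 0.21) there. Among activated libraries the endothelial sum was highest in WT replicate 1, at 780 CPM. The fit can therefore not separate endothelial transcripts from other traits of that library. The part of endothelial transcripts in these values was not tested.

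**Figure D4:**
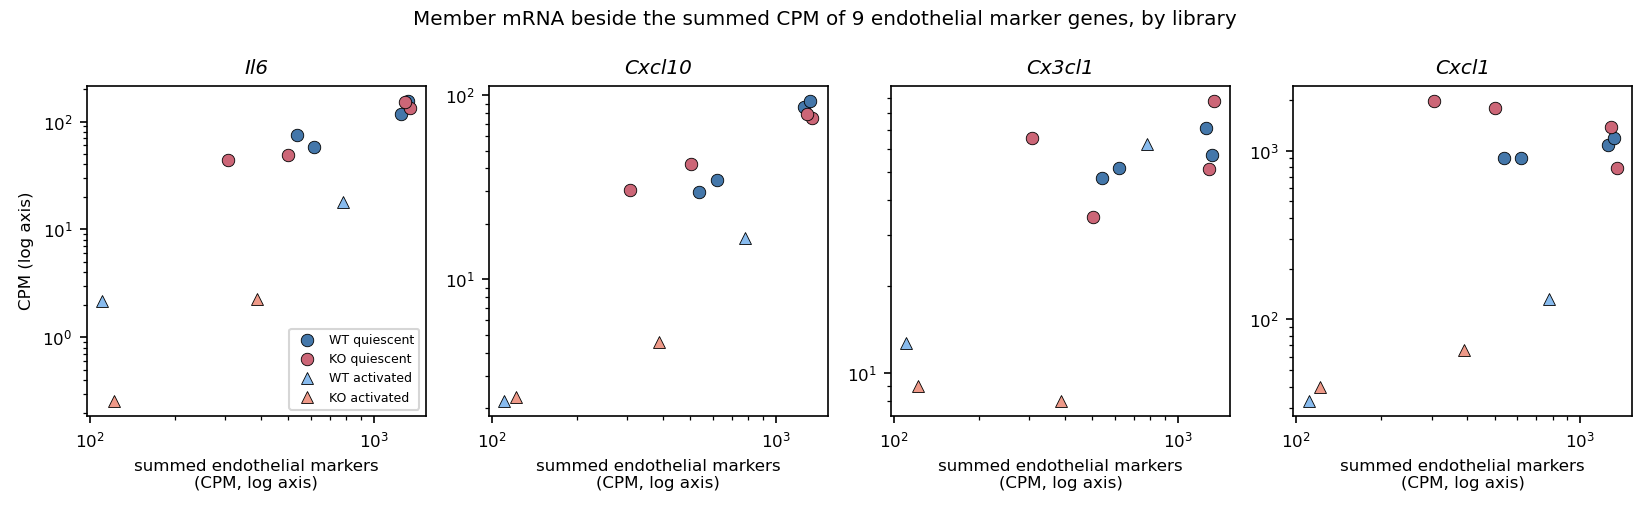
CPM of *Il6*, *Cxcl10*, *Cx3cl1* and *Cxcl1* against the summed CPM of 9 endothelial marker genes in the 12 libraries, both on log axes, with circles for quiescent and triangles for activated libraries. The 4 quiescent libraries with sums of 1253 to 1345 CPM are the 4 highest for *Il6* and *Cxcl10*, while *Cxcl1* is highest at the lowest quiescent sum.

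Other lists of related genes were read for context. Together they held 96 genes, of which 87 were tested, and 28 (32.2%) passed between states in WT and 41 (47.1%) in KO, beside 26.2% and 29.6% of all genes tested. Between KO and WT none of the 87 passed by edgeR in either state or in the difference between states. At an unadjusted p under 0.05 from edgeR there were 3 in quiescent cells, 17 in activated cells and 13 in the difference. The shares of all genes tested were 1.74%, 8.37% and 6.59%. DESeq2 called 0, 3 (*Bcl3*, *Zfp36* and *Rel*) and 2 (*Bcl3* and *Rel*) of the listed genes. Over all genes, DESeq2 on all libraries called 144 in activated cells and 47 in the difference.

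Of 23 other chemokines tested, 1 rose and 3 fell in WT, and 1 rose and 6 fell in KO cells. *Ccl25* rose in WT (log2 fold change 1.29), where *Ccl9* (-1.88), *Ccl27a* (-1.63) and *Cxcl9* (-2.89) fell. In KO cells *Cxcl14* rose (1.42), and *Ccl11* (-1.77), *Ccl27a* (-1.97), *Cxcl9* (-2.55), *Ccl3*, *Ccl4* and *Ccl24* fell. *Ccl3*, *Ccl4* and *Ccl24* were scarce, averaging 2.56, 1.92 and 1.29 CPM in quiescent and 0.114, 0 and 0 CPM in activated KO cells. The 3 most abundant chemokines of this list over all libraries, *Cxcl14*, *Ccl11* and *Cxcl16*, averaged 23.7, 23.0 and 18.8 CPM. The median log2 fold change of the list was -0.83 in WT and -1.29 in KO, beside -0.92 and -0.96 over all genes tested, and the count called lower in WT was no larger a share than that of all genes.

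Of 22 other cytokines tested, *Il11*, another gp130 cytokine, and *Mif* rose in both genotypes. *Il11* was 15.4 ± 8.54 CPM (SD, n = 4) in quiescent and 141 ± 33.4 CPM (SD, n = 2) in activated WT cells (log2 fold change 3.19, SE 0.55, adjusted p = 0.000188), and the KO log2 fold change was 3.82 (SE 0.56, adjusted p = 2.77e-05). *Mif* rose by log2 fold changes of 1.69 and 1.54. In WT *Il10*, *Il16*, *Il18* and *Osm* fell, and in KO 12 fell, among them *Il1b*, *Tnf*, *Il33* and *Csf3*. *Il10*, *Il16*, *Il18* and *Osm* were scarce, averaging 1.92, 6.34, 3.39 and 1.95 CPM in quiescent WT cells. In activated WT cells they averaged 0.163, 1.31, 0.163 and 0 CPM. *Il1b* averaged 3.94 CPM in quiescent and 0 CPM in activated KO cells. *Csf3*, the neutrophil growth factor, was 46.1 ± 32.4 CPM (SD, n = 4) in quiescent and 3.85 ± 3.27 CPM (SD, n = 2) in activated KO cells (log2 fold change -3.56, SE 0.80, adjusted p = 0.00188). The median of the list was -1.09 in WT and -2.42 in KO, beside the same -0.92 and -0.96.

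Of the receptors of these ligands, 12 of 14 were tested, and *Il6st*, *Lifr* and *Csf1r* fell in both genotypes and *Ackr1*, a scavenger receptor of endothelial cells, in KO cells. *Il6st*, which encodes gp130, was the most abundant, at 691 ± 54.2 CPM (SD, n = 4) in quiescent and 281 ± 88.5 CPM (SD, n = 2) in activated WT cells (log2 fold change -1.30, SE 0.29, adjusted p = 0.00178), and the KO log2 fold change was -1.24. *Lifr* changed by -1.60 in WT and -1.04 in KO cells. *Csf1r*, a macrophage gene, was 12.8 ± 4.61 CPM (SD, n = 4) in quiescent and 2.46 ± 0.241 CPM (SD, n = 2) in activated WT cells. *Cxcr2* and *Cx3cr1*, receptors of members named here after their values were seen, reached at most 2.48 and 5.25 CPM in any library.

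Of 15 genes for NF-kB subunits and their regulators tested, 10 fell and 1 rose in WT, and 11 fell and 1 rose in KO cells, with medians of -1.42 and -1.71. *Nfkb1* was 1036 ± 239 CPM (SD, n = 4) in quiescent and 114 ± 18.5 CPM (SD, n = 2) in activated WT cells (log2 fold change -3.18, SE 0.40, adjusted p = 6.56e-06), and the KO log2 fold change was -3.93. *Rela* changed by -2.04 and -2.13 and *Nfkb2* by -1.13 and -1.27. The feedback inhibitors *Nfkbia* (-1.42 and -1.65) and *Tnfaip3* (-1.78 and -3.19) fell as well, and *Ikbkg*, which encodes the regulatory subunit of the IkB kinase, rose (1.81 and 1.88).

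Of 9 factors that bind cytokine mRNA and alter its decay, 3 fell in each genotype. *Zfp36*, which encodes tristetraprolin, was 3887 ± 418 CPM (SD, n = 4) in quiescent and 126 ± 99.3 CPM (SD, n = 2) in activated WT cells (log2 fold change -4.93, SE 0.46, adjusted p = 2.17e-07), and the KO log2 fold change was -6.15. *Zfp36l1* changed by -3.20 in WT and -3.54 in KO cells. *Zfp36l2* fell in WT (-1.05) and *Zc3h12a*, which encodes regnase-1, in KO cells (-1.08). Of 6 proteases that can cut membrane-bound ligands, *Mmp3* passed as higher in WT, where its 2 activated libraries were at 25.3 and 0.876 CPM, and *Ctss* as lower in KO. *Adam10* and *Adam17*, which shed CX3CL1, averaged 50.7 and 43.2 CPM over all libraries and were not called in either genotype.

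For *Ccl2* and *Il6*, the 5 genes with the most similar pattern were sought among 8984 genes whose log2 CPM averaged over 3. Over the 12 libraries, log2 CPM of *Ccl2* was most like that of *Tnfaip3* (Pearson r = 0.95, Spearman rho = 0.90), *Cnnm2*, *Als2cl*, *H2-Q6* and *H2-Q5*, with r between 0.945 and 0.951. *Il6* was most like *Dll1* (r = 0.99, rho = 0.97), *Prkd2*, *Selp*, *Bhlhe40* and *Magi1*. The 12 libraries share 2 states, which alone give high values, so r was also taken within the 8 quiescent libraries. There it was 0.82 with *Tnfaip3*, 0.58 with *Cnnm2*, 0.71 with *Als2cl*, 0.64 with *H2-Q6* and 0.79 with *H2-Q5* for *Ccl2*, lower in each case than over the 12. For *Il6* it was 0.98 with *Dll1*, 0.93 with *Prkd2*, 0.96 with *Selp*, 0.85 with *Bhlhe40* and 0.91 with *Magi1*. *Dll1* encodes a Notch ligand and *Selp* P-selectin, an adhesion molecule of endothelial cells and platelets. These correlations are descriptions over libraries that share a depth range within a state. The genes were picked on 12 libraries that include the 8 quiescent ones, so r within those 8 is not a separate check.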

How the data were processed

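Poly(A) RNA libraries of mouse satellite cells were made with the NEBNext Ultra kit. The authors trimmed reads with Trim Galore 0.6.0, aligned them to GRCm38.p6 with STAR 2.7.2a and counted GENCODE genes with Rsubread, and they ran DESeq2 1.34.0. The deposited gene counts are raw and not normalized. The deposited FPKM values are given by the authors as 1 value per group, with no account of how replicates were combined, and served only for a side-by-side reading of levels. Columns of comparisons made by the authors were not used.

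All 12 libraries entered 1 edgeR 4.0.16 quasi-likelihood fit (R 4.3.3, TMM scaling, filterByExpr, no block), which kept 25771 of 55401 genes and all 10 members. The SE was taken from the log2 fold change and its F statistic. Adjusted p is by Benjamini-Hochberg over all genes tested, in every sentence that prints one. DESeq2 1.42.0, other filters and scalings, and leaving out each library were alternatives. The tests were checked on simulated counts. CPM per kb used merged GENCODE M21 exon lengths on GRCm38, transcripts were compared with blastn 2.17.0, and patterns with log2 CPM at a prior count of 2. The labels do not say that replicates are separate animals, so p-values measure the spread between these libraries. Named genes were all members, the *Cxcr4* and *Pax7* checks, and from each related list the genes called and the 3 most abundant, and for *Ccl2* and *Il6* the 5 most similar genes; *Cxcr2*, *Cx3cr1* and the sex-linked *Xist* were named outside this rule. The members and lists were chosen with earlier results of these data known.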

Additional observations from a re-analysis of the deposited data

How the results depend on the processing

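Of the single-gene values under alternatives other than leaving out a library, 511 kept their direction and side of the threshold, 13 newly passed, 2 no longer passed and 3 turned direction. The 3 were *Cxcl5* between states in KO with a replicate block (0.017), and *Cxcl10* (0.18) and *Il6* (0.026) between genotypes in quiescent cells with the endothelial covariate, a fit chosen after seeing the data. Same-numbered quiescent libraries correlated in their deviations at 0.24, 0.16, -0.27 and 0.59 for replicates 1 to 4, and activated ones at -0.07. With 2 libraries per activated group the deviations mirror each other, so both activated pairs give the same single value. Neither that value nor replicate 3 was over 0.1, and not every quiescent library was most like its own number. The numbers were therefore not taken as a pairing. The block changed no member's call and gave 3 genes in the difference between states, against 0.

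Without a filter on low counts, 2 members passed in quiescent cells, 5 in activated cells and 5 in the difference, and DESeq2 on all libraries called 1 member in activated cells. Over all genes, 13 passed between genotypes in activated cells, against 8 with DESeq2 size factors, 332 without a filter, 2 with a mean count of at least 10, 20 in a robust fit, 144 by DESeq2 on all libraries, 30 by DESeq2 on the compared groups, 3 by edgeR on those groups and 23 with the covariate. In quiescent cells 4 passed, against 47 without a filter. In the difference 0 passed, against 1 without CT010467.1, 170 without a filter, 8 in a robust fit, 47 by DESeq2 and 14 with the covariate. *Lif* between states in KO no longer passed in the robust fit (-1.69) or by DESeq2 on the compared groups (-1.59). The cause was not tested.

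Leaving out 1 library at a time gave 3 to 7 genes in quiescent cells, 0 to 211 in activated cells, 0 to 82 in the difference, 4481 to 6501 between states in WT and 5020 to 7679 in KO. For members the counts were 0 to 0, 0 to 3, 0 to 4, 5 to 8 and 8 to 9. A log2 fold change turned direction in at least 1 of these fits for the members that follow, with their ranges. Between genotypes in quiescent cells these were *Cx3cl1* (-0.17 to 0.26), *Cxcl10* (-0.33 to 0.19), *Il6* (-0.42 to 0.20) and *Csf1* (-0.19 to 0.43). In activated cells they were *Ccl2* (-2.69 to 0.43), *Ccl7* (-1.67 to 0.55), *Cxcl1* (-1.42 to 0.58), *Cxcl2* (-1.39 to 0.76), *Cxcl5* (-1.85 to 3.49), *Cxcl10* (-2.36 to 0.56) and *Csf1* (-0.33 to 0.14). In the difference between states they were *Cxcl1* (-1.96 to 0.037), *Cxcl5* (-3.17 to 2.17), *Cxcl10* (-2.25 to 0.67) and *Csf1* (-0.51 to 0.16). Between states they were *Cxcl5* (-2.66 to 1.96), *Cx3cl1* (-2.08 to 0.20) and *Lif* (-0.31 to 0.88) in WT and *Cxcl5* (-2.02 to 0.26) in KO. Activated libraries hold the fewest counts, and a member with 1 to 10 counts there is read with little precision.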
